A study of Mus musculus with 8 samples.

Results

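The natriuretic peptide genes comprised 8 genes, namely the hormones Nppa, Nppb and Nppc, the receptors Npr1, Npr2 and Npr3, and the proteases Corin and Furin. They were found on the array through the RefSeq transcript on which each probe was designed, and for each gene the brightest probe that the scanner had flagged as well above background on 4 or more arrays was used. Each gene had 1 probe, and 7 of the 8 genes had a retained probe, among 15156 genes with a retained probe in all. Nppc had none.

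Cardiac RNA was taken 24 h after surgery from male C57BL\6 mice. The paper states that all of these mice were imaged by FDG-PET 24 h after surgery. Acipimox was injected for the scan, which was recorded under isoflurane. In 4 MI mice the anterior interventricular artery was permanently occluded, and the 4 control mice were sham-operated. Age was not given in the labels, and the paper calls the mice adult. The tissue was labelled as ventricles, and the methods describe homogenization of the excised heart, so infarcted and remote tissue were not separated. Each mouse had 1 array, with RNA labeled in 1 colour.

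Nppa and Nppb encode atrial and B-type natriuretic peptide, hormones that heart muscle cells release on stretch and that promote sodium excretion, widening of vessels and a fall in blood pressure. Nppa RNA is abundant in atria and Nppb RNA is induced in stretched ventricles. Corin, a protease on the surface of cardiomyocytes, cleaves the atrial precursor, and Furin, a protease of the secretory pathway, cleaves the B-type precursor. Npr1 and Npr2 are receptors that make cyclic GMP when the hormones bind, and Npr3 mainly clears the hormones from the circulation. Nppc encodes C-type natriuretic peptide, made largely by endothelium, which acts through Npr2.

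Nppb and Nppa lie next to each other on mouse chromosome 4 (GRCm38.p6), Nppb at chr4:147985786-147987205 and Nppa at chr4:148000722-148002074, on the same strand and 13516 bases apart. Nppb and Nppa are shown because they were the hormone genes whose RNA was measured at high signal. The stretches lie before the gene start used in the letter search. The sequences are from RefSeq, 5′ to 3′ on the plus strand, and capitals mark the letters searched on both strands: TGATAA and AGATAA for factors of the GATA family, TNAAGTG for NKX2-5, GGAATG for the M-CAT element of TEAD factors, TGANTCA for AP-1 and TATAAA for the TATA box. For Nppa the 250 bases at chr4:148000472-148000721 are given. For Nppb 30 bases at chr4:147985795-147985824 and 24 bases at chr4:147985860-147985883 are given. The Nppb stretches lie inside the gene interval stated above, after its first base. They lie before the start used in the search, whose window was chr4:147985650-147985949 with 250 bases before that start. The labels upstream and proximal refer to that start.
Nppa: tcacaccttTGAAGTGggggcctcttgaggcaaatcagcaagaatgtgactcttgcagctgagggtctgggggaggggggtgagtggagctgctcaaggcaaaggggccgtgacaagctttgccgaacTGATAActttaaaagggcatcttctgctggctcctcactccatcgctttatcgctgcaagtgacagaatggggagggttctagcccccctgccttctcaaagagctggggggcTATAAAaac
Nppb upstream: GGAATGcagcTGATAAatcagAGATAAccc
Nppb proximal: cagccccagTATAAAaggcagagg
Both genes held TGATAA and TATAAA, Nppa also held TNAAGTG, and Nppb also held GGAATG and AGATAA. Of 32851 windows of 300 bases around gene starts, 9.05% held TGATAA, 13.6% TATAAA, 11.5% TNAAGTG, 14.7% GGAATG and 11.2% AGATAA. The letters TGANTCA, which 7.81% of the windows held, were not in the windows of the hormone genes. These matches describe letters only.

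The array of the sham-operated mouse 4 stood apart in the markers of atrial muscle. Sln, which encodes the calcium pump inhibitor sarcolipin, had a log2 signal of 8.79 in sham mouse 4 against 13.99 to 15.80 in the other sham-operated mice. Myl4, an atrial myosin light chain, had 11.82 there against 15.22 to 16.79, and Myl7, another atrial light chain, 8.52 against 12.94 to 14.54. Mybphl and Dkk3 were lower there as well, 17.0-fold and 5.38-fold below the lowest other sham-operated mouse, whereas Bmp10 and Kcnj3 were not. In all, 5 of the 7 atrial markers were lowest in sham mouse 4, and these 5 were highest among sham-operated mice in sham mouse 2. The summed linear signal of the 7 genes was 5039 in sham mouse 4, 65089 to 201652 in the other sham-operated mice and 79002 to 163420 in MI mice. Sln, Myl4, Myl7, Mybphl and Dkk3 were flagged well above background on all 4 sham arrays. Mybphl was dim in sham mouse 4, at a log2 signal of 5.04. The summed signal of 5 ventricular markers ranged from 1.07e+06 to 1.52e+06 in sham-operated mice and from 935144 to 1.40e+06 in MI mice, and sham mouse 4 had 1.19e+06. Both Nppa and Nppb are therefore given with and without sham mouse 4.

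**Figure D1:**
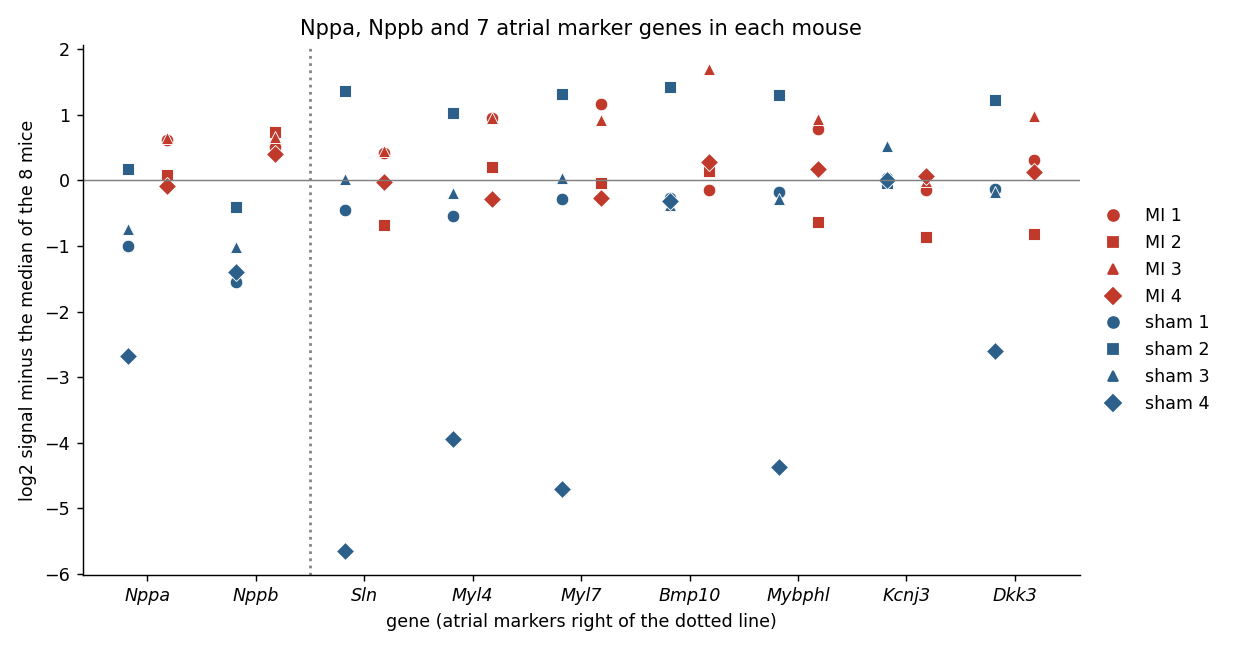
Log2 normalized signal of Nppa, Nppb and 7 atrial marker genes, each minus the median of the 8 mice for that gene (vertical axis, log2 units), with 1 point per mouse; red points are MI mice, blue points sham-operated mice, and the shape gives the mouse number. Sham mouse 4 lay far below the other mice for Sln, Myl4, Myl7, Mybphl and Dkk3, at -5.65 for Sln, and was the lowest for Nppa at -2.67, while for Nppb it lay at -1.39 between sham mice 1 and 3.

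The first question was whether the hormones and their receptors and proteases differed between MI and sham-operated mice. Of the 7 retained genes, Nppb and Nppa had an adjusted p under 0.05 in limma and were higher in MI mice, none was lower, and 5 did not pass. Over all 34038 retained probes, 6.3% were called higher and 1.31% lower. The median log2 fold change of the 7 genes was 0.47, beside 0.12 for all retained probes. In a bulk sample, fewer cells of a type and less RNA per cell cannot be told apart.

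Nppb was the member with the clearest difference. Its log2 signal was 17.40, 17.62, 17.56 and 17.29 in MI mice 1 to 4 and 15.33, 16.49, 15.87 and 15.49 in sham mice 1 to 4. The lowest MI mouse exceeded the highest sham-operated mouse, so the groups did not overlap, and the highest sham-operated mouse was mouse 2. The means were 17.47 ± 0.15 (SD, n = 4) and 15.79 ± 0.51 (SD, n = 4). The difference was 3.19-fold, with a 95% interval of 2.28 to 4.45 (log2 fold change 1.67, standard error 0.23, adjusted p = 1.54e-05 in limma). The exact two-sided permutation test gave p = 0.0286, the smallest that 4 mice against 4 allow. It was the only one of the 7 genes whose groups did not overlap. Of the 33865 probes with a value in each mouse, 8.44% had groups apart with MI higher and 2.70% with MI lower. Without sham mouse 4, Nppb was 2.97-fold higher (adjusted p = 6.06e-06). It was called under each of the 13 other processing settings and with each of the 8 mice left out.

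Nppa was higher on average in MI mice, with groups that overlapped. Its log2 signal was 18.30, 17.78, 18.35 and 17.61 in MI mice 1 to 4 and 16.70, 17.87, 16.95 and 15.02 in sham mice 1 to 4. Sham mouse 2 lay above MI mice 2 and 4, and sham mouse 4 was 3.20-fold below the lowest other sham-operated mouse. The sham-operated mice spanned 7.23-fold and the MI mice 1.67-fold. The means were 18.01 ± 0.37 (SD, n = 4) and 16.64 ± 1.19 (SD, n = 4). Nppa was read by 10 spots, of which 9 entered the mean on each array except for sham mouse 4, where 8 did. The coefficient of variation between the spots of an array was 3.65% to 5.51%.

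The limma fit gave a 2.59-fold difference in Nppa, with a 95% interval of 1.55 to 4.32 (log2 fold change 1.37, standard error 0.36, adjusted p = 0.0156). The exact permutation test did not reach 0.05 (p = 0.0857). Without sham mouse 4 the difference was 1.78-fold (log2 fold change 0.83, adjusted p = 0.0454; exact permutation p = 0.143), and without MI mouse 2 the adjusted p was 0.0619. Nppa passed the threshold under 3 of the 13 other processing settings, and with signals scaled to the 75th percentile within each array its adjusted p was 0.147 at a log2 fold change of 1.25. The direction was the same in all of them. The atrial marker signal was lowest in the same array as Nppa, and its part in the Nppa difference was not tested.

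The mouse-to-mouse variation of Nppa within the groups ran closely with that of several atrial markers and not with that of Kcnj3. Among 18088 probes with a gene symbol and well above background on all 8 arrays, the 5 genes whose deviations from the group means had the highest Pearson r with those of Nppa were Myl4 (0.99), Fgf12 (0.99), Myl7 (0.98), Mybphl (0.97) and Sln (0.96). Fgf12 encodes a growth factor homolog that binds sodium channels, and the other 4 genes were on the list of atrial markers. Without sham mouse 4, r over the remaining 7 mice was 0.99 for Myl4, 0.96 for Fgf12, 0.98 for Myl7, 0.88 for Mybphl and 0.92 for Sln. Of the other listed atrial markers compared, Dkk3 had an r of 0.95 with Nppa (0.82 without sham mouse 4) and Kcnj3 an r of 0.13 (-0.04 without sham mouse 4). These values describe 8 points that share the normalization of their array. No atrial marker was called between MI and sham-operated mice, but with scaling to the 75th percentile Kcnj3 was called lower in MI mice (log2 fold change -0.54, adjusted p = 0.0490). The log2 fold change of Myl4 was 1.37 (adjusted p = 0.162) with all mice and 0.36 (adjusted p = 0.621) without sham mouse 4. For Sln it was 1.22 (adjusted p = 0.421) and -0.27 (adjusted p = 0.743).

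The genes nearest to Nppb by the same measure were Mesp2 (0.88), Nmrk2 (0.83), D830030K20Rik (0.83), 4921504E06Rik (0.83) and Pnldc1 (0.82), and no atrial marker was among them. The r of Nppb was 0.63 with Myl4, 0.55 with Sln and -0.19 with Kcnj3 over the 8 mice, and 0.76, 0.70 and -0.27 without sham mouse 4. Nmrk2, a nicotinamide riboside kinase, also differed between the groups, as given with the stretch-responsive genes.

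Whether Nppb and Nppa changed unequally was tested on the difference of their log2 signals within each mouse. Nppb minus Nppa was -0.90, -0.15, -0.79 and -0.32 in MI mice 1 to 4 and -1.36, -1.39, -1.08 and 0.47 in sham mice 1 to 4. Sham mouse 4 was the only mouse with a value above 0, and each of the other sham-operated mice lay below all MI mice. The means differed by 0.30, MI minus sham (exact permutation p = 0.629, and 0.629 after adjustment over 2 such comparisons). Without sham mouse 4 the difference was 0.74 (exact permutation p = 0.0571). An unequal change of the 2 hormones was not shown.

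Nppc could not be measured in these hearts. Its signal was 2.74 to 11.2 in the 7 arrays with a usable spot, not well above background in any of them. In sham mouse 4 the spot was marked as an outlier by the scanner software, and it was left out. No fold is given for Nppc.

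**Figure D2:**
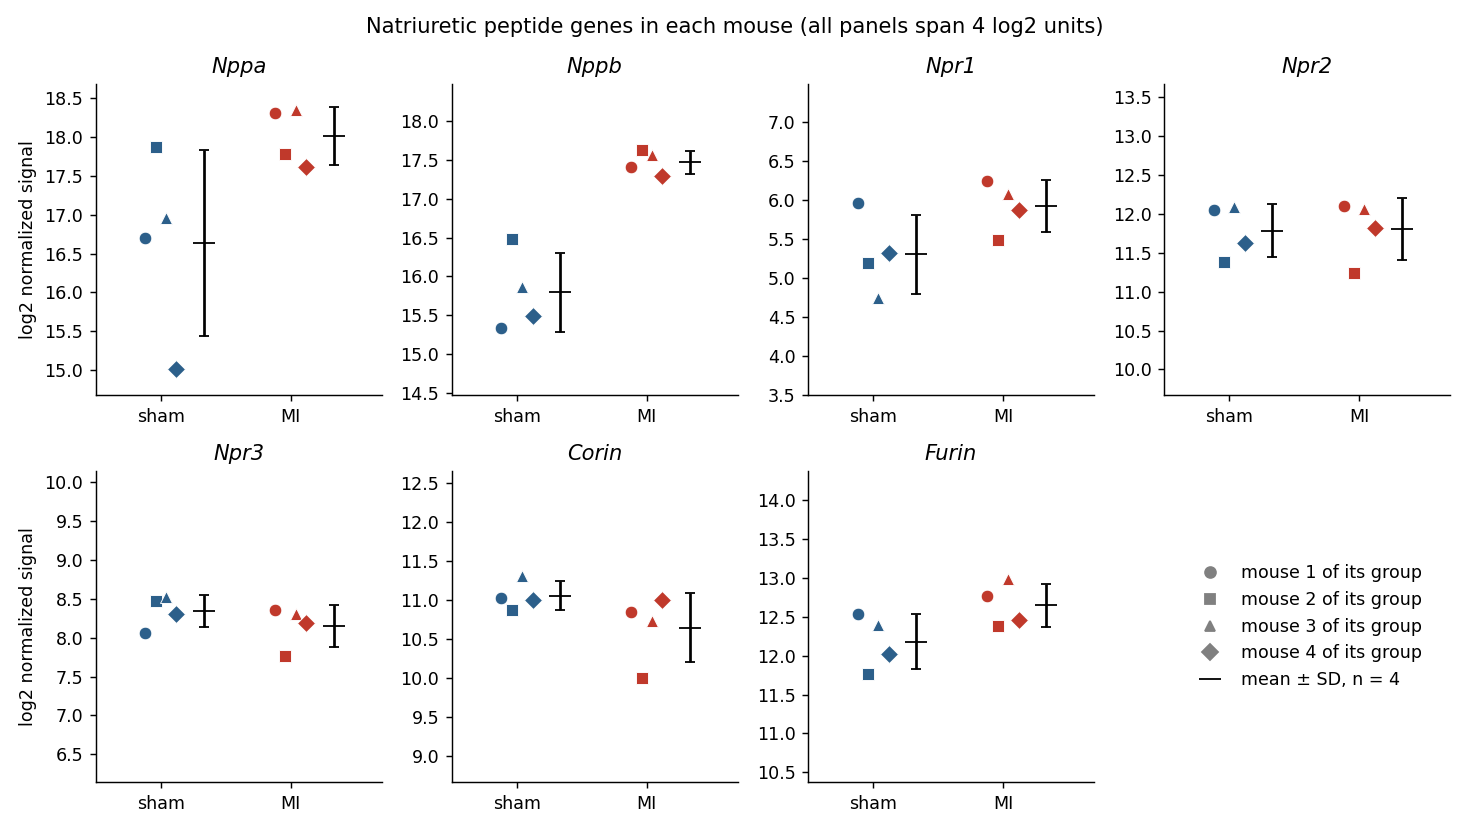
Log2 normalized signal (vertical axis) of the 7 measured natriuretic peptide genes in each of the 4 sham-operated mice (blue) and the 4 MI mice (red), with the shape giving the mouse number and the black bars the mean ± SD. The groups are apart for Nppb, at 17.29 or more in MI mice and 16.49 or less in sham-operated mice, and overlap for the other 6 genes.

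The proteases that release the hormones were detected in all mice and did not pass the test in the main limma fit. Corin had log2 signals of 10.85, 10.00, 10.72 and 11.00 in MI mice 1 to 4 and 11.03, 10.88, 11.31 and 11.00 in sham mice 1 to 4. MI mouse 2 was the lowest of the 8 mice and sham mouse 3 the highest. The means were 10.64 ± 0.44 (SD, n = 4) after MI and 11.05 ± 0.19 (SD, n = 4) after sham operation, a log2 fold change of -0.41 with a 95% interval of -0.88 to 0.06 (adjusted p = 0.329; exact permutation p = 0.0857). With scaling to the 75th percentile, which lowered the median log2 fold change of all probes by 0.14, Corin was called lower in MI mice (log2 fold change -0.54, adjusted p = 0.0318). Under that scaling the exact permutation test of Corin gave p = 0.0286, and 8.84% of the probes were called lower and 8.70% higher. In limma, Corin was also called lower with quantile normalization (adjusted p = 0.0426) and with normexp background correction and quantile normalization (adjusted p = 0.0240).

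Furin had log2 signals of 12.77, 12.38, 12.98 and 12.46 in MI mice 1 to 4 and 12.54, 11.76, 12.39 and 12.02 in sham mice 1 to 4. The groups overlapped, with sham mouse 1 above MI mice 2 and 4 and sham mouse 3 just above MI mouse 2. The log2 fold change was 0.47, with a 95% interval of 0.01 to 0.93 (adjusted p = 0.236; exact permutation p = 0.143). In limma, Furin was called higher with normexp background correction and quantile normalization (adjusted p = 0.0253) and with a replicate block (adjusted p = 0.0435).

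The receptors that make cyclic GMP gave no called difference either. Npr1, the receptor for the hormones of Nppa and Nppb, was well above background on all arrays but dim, with processed signals of 37.0 to 57.7 in MI mice and 17.0 to 58.9 in sham-operated mice. Its log2 signal was 6.25, 5.48, 6.08 and 5.88 in MI mice 1 to 4 and 5.97, 5.19, 4.74 and 5.33 in sham mice 1 to 4. MI mice 1 and 3 lay above all sham-operated mice, and sham mouse 1 lay above MI mice 2 and 4. The log2 fold change was 0.62, with a 95% interval of 0.12 to 1.12 (adjusted p = 0.135; exact permutation p = 0.0857). It was called when sham mouse 1 was left out (log2 fold change 0.84, adjusted p = 0.0268). The normalization adds 3.16 to 19.6 to the signal of an array before the logarithm, which understates fold changes of a gene this dim. Npr1 had a log2 fold change of 0.11 with a separate spike-in fit of vsn, which adds larger constants, and of 0.14 with normexp background correction and quantile normalization.

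Npr2, the receptor for C-type natriuretic peptide, had log2 signals of 12.10, 11.24, 12.07 and 11.82 in MI mice 1 to 4 and 12.05, 11.38, 12.09 and 11.62 in sham mice 1 to 4. Mouse 2 was the lowest of each group. The log2 fold change was 0.02, with a 95% interval of -0.45 to 0.50 (adjusted p = 0.969), so a change beyond 1.42-fold in either direction lay outside the interval. Its sign turned under several scalings.

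Npr3, which clears the hormones, had log2 signals of 8.35, 7.76, 8.31 and 8.18 in MI mice 1 to 4 and 8.06, 8.48, 8.52 and 8.31 in sham mice 1 to 4. The groups overlapped, with sham mouse 1 below 3 of the MI mice. The log2 fold change was -0.19, with a 95% interval of -0.63 to 0.24 (adjusted p = 0.678; exact permutation p = 0.314). The signal of Npr3 minus that of Npr1 within a mouse was 2.23 ± 0.09 (SD, n = 4) after MI and 3.04 ± 0.71 (SD, n = 4) after sham operation. The MI mice had 2.10 to 2.30. Sham mouse 1 had 2.09, just below all MI mice, and the other sham-operated mice had 2.98 to 3.78, above all MI mice. The difference of -0.81 did not pass the test (exact permutation p = 0.143, adjusted p = 0.286 over the 2 comparisons), and it was -1.12 without sham mouse 1 (exact permutation p = 0.0286). With the separate vsn fit it was -0.23 and with normexp and quantile normalization -0.44 (exact permutation p = 0.114 in both).

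**Figure D3:**
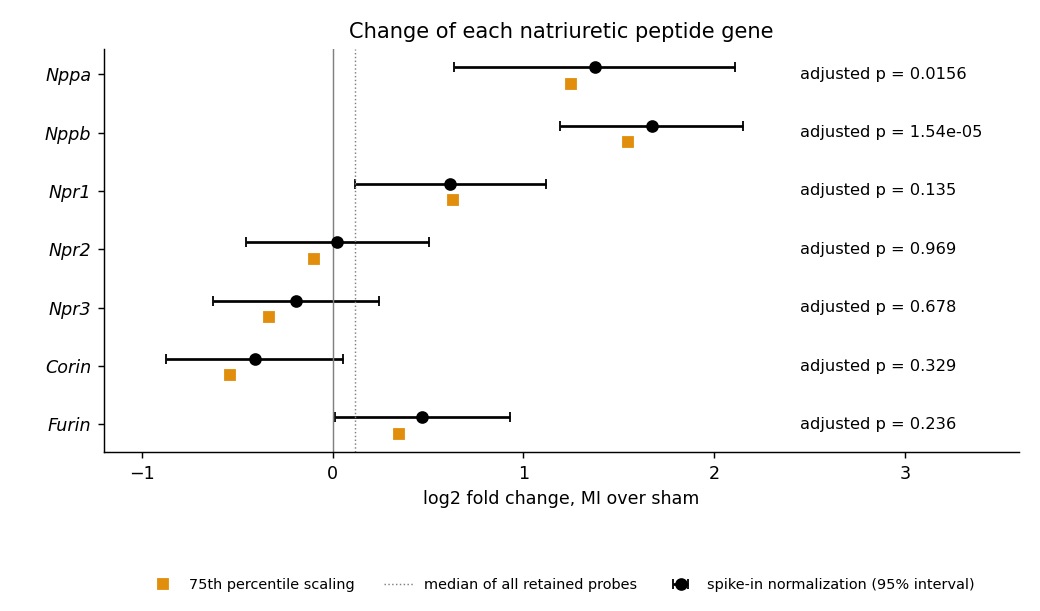
Log2 fold change of MI over sham-operated mice (horizontal axis) for the 7 measured genes, with black points and bars for the spike-in normalization and its 95% interval, orange squares for 75th percentile scaling, and a dotted line at the median of all retained probes, 0.12. Nppb (1.67) and Nppa (1.37) lie to the right, and the intervals of Npr2, Npr3 and Corin include 0. The intervals are not adjusted for the number of probes, and Npr1 and Furin, whose intervals lie above 0, were not called.

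The 8 arrays lay in 2 rows of 1 slide, with 2 MI and 2 sham-operated mice in each row. Within the rows the log2 fold change of Nppb was 1.60 and 1.74, and that of Nppa was 0.75 in the row that held sham mouse 2 and 1.99 in the row that held sham mouse 4. Npr1 had 0.29 and 0.94, and Furin 0.43 and 0.51. Corin had -0.53 and -0.29 and Npr3 had -0.21 and -0.17, while Npr2 had -0.04 and 0.09. Apart from Npr2, the direction of each gene was the same in both rows.

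Genes around the hormones were described in 5 lists with 61 genes, of which 58 had a retained probe. Of these, 9 were called higher in MI mice and none lower in limma, beside 6.3% and 1.31% of all retained probes. The list of fetal and stretch-responsive genes held 7 of the 9. With scaling to the 75th percentile, 10 were called higher and 11 lower, beside 8.70% and 8.84% of all retained probes.

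Other peptide-processing and clearance enzymes, among them neprilysin (Mme), insulin-degrading enzyme (Ide) and the convertase Pcsk6 that activates corin, held no called gene. Of 8 listed genes, 7 were retained, with log2 fold changes from -0.67 to 0.21 and a median of -0.17. Ostn, which was on the list though it does not encode an enzyme, had no retained probe. The lowest adjusted p was 0.0741. With scaling to the 75th percentile, 2 of the 7 were called lower in MI mice, beside 8.84% of all retained probes.

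In the list of cyclic GMP synthesis, kinases and targets, 1 of 12 retained genes was called, near the 6.3% of all retained probes called higher. Vasp, an actin regulator phosphorylated by cyclic GMP-dependent kinase, had log2 signals of 10.59, 10.68, 10.90 and 10.96 in MI mice 1 to 4 and 9.84, 9.40, 9.88 and 9.71 in sham mice 1 to 4. The groups did not overlap, as for 8.44% of probes with MI higher, and the difference was 2.10-fold (log2 fold change 1.07, standard error 0.21, adjusted p = 0.000891). The median of the list was -0.30, below that of all probes, and Prkg2 had no retained probe. With scaling to the 75th percentile, Vasp remained called and 6 genes were called lower in MI mice, beside 8.84% of all retained probes. The list of cyclic nucleotide phosphodiesterases held enzymes that degrade cyclic GMP or cyclic AMP, and also Pde6d, which does not encode such an enzyme. Of the 11 listed genes, 10 were retained and none was called, with log2 fold changes from -0.37 to 0.48 and a lowest adjusted p of 0.212. Pde11a had no retained probe. With scaling to the 75th percentile, 2 of the 10 were called lower, Pde6d among them (adjusted p = 0.0311), beside 8.84% of all retained probes.

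Of 18 transcription regulators known to act on the natriuretic peptide genes, among them Gata4, Nkx2-5, Tbx5, Mef2c, Srf and Rest, 1 was called. Nfatc4, a factor activated by calcineurin, had log2 signals of 10.53, 10.19, 10.88 and 10.10 in MI mice 1 to 4 and 9.82, 9.11, 9.78 and 9.54 in sham mice 1 to 4. The groups did not overlap, and the difference was 1.82-fold (log2 fold change 0.86, standard error 0.23, adjusted p = 0.0162). A count of 1 in 18 is near the 6.3% of all retained probes called higher, and 8.44% of probes had groups apart with MI higher. The call was lost without MI mouse 3 (adjusted p = 0.0811) and without sham mouse 2 (adjusted p = 0.0671). It was also lost in limma with the own vsn fit (adjusted p = 0.0626), the shift by spike-in signals alone (0.0545) and no detection filter (0.146). Significance analysis of microarrays gave q = 0.0567. The median of the list was 0.12, as for all probes.

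The fetal and stretch-responsive cardiac genes held the most calls. Of 11 retained genes, 7 were higher in MI mice, none was lower, and the median log2 fold change was 1.27. Of all retained probes, 6.3% were called higher. The list was chosen with earlier results of these data known, so its count describes these 11 genes and is no evidence about stretch-responsive genes in general. Nmrk2, the nicotinamide riboside kinase, had log2 signals of 15.14, 15.67, 15.64 and 15.25 in MI mice 1 to 4 and 9.84, 10.41, 10.09 and 9.57 in sham mice 1 to 4. All MI mice lay far above all sham-operated mice, by 43.6-fold on average (adjusted p = 1.03e-14). Ankrd2, an ankyrin repeat protein of stretched muscle, had 12.34, 13.10, 12.70 and 12.64 in MI mice 1 to 4 and 8.96, 7.98, 9.14 and 9.77 in sham mice 1 to 4, a 13.3-fold difference (adjusted p = 4.58e-10). Fhl1, a LIM domain protein, was 4.63-fold higher (adjusted p = 7.70e-08), and Actn1, which encodes an alpha-actinin, 3.84-fold higher (adjusted p = 6.04e-06).

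The other 3 called genes of that list, named after their values were seen, were Xirp2 at 3.37-fold, Acta1 at 2.42-fold and Ankrd1 at 2.01-fold. Each of the 7 was called with any single mouse left out. Myh7, the slow myosin heavy chain of the fetal ventricle, had a log2 fold change of 0.53 (adjusted p = 0.234), and Myh6, its adult counterpart, -0.05 (adjusted p = 0.937).

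**Figure D4:**
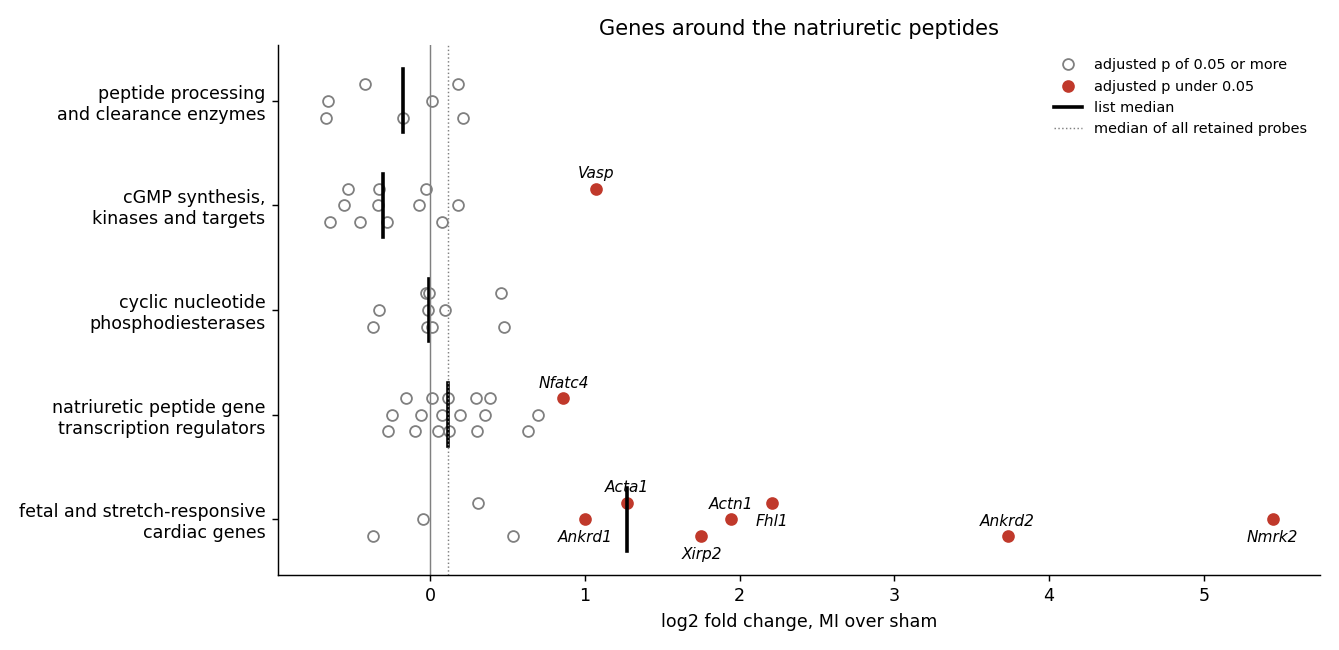
Log2 fold change of MI over sham-operated mice (horizontal axis) for each retained gene of 5 lists around the natriuretic peptides; filled red points had an adjusted p under 0.05, open points did not, black bars are the list medians and the dotted line is the median of all retained probes. The called genes are Vasp, Nfatc4 and 7 of the 11 fetal and stretch-responsive genes, with Nmrk2 farthest at 5.45.

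Leukocyte markers also differed between the groups. Of 5 retained neutrophil markers, 4 were higher in MI mice, beside 6.3% of all retained probes, and Csf3r was not called (log2 fold change 0.08, adjusted p = 0.878). The summed linear signal of the 5, in which the brightest genes weigh most, was 203427 to 315059 in MI mice against 61307 to 80186 in sham-operated mice. All 4 markers of leukocytes in general were higher, with a summed signal of 6918 to 9379 against 2408 to 3337. S100a8, a calcium-binding protein of neutrophils, was 8.09-fold higher (adjusted p = 3.31e-10). The part of infiltrating cells in the differences of Vasp, Actn1 and the other called genes was not tested. None of the 7 markers of cardiomyocytes of both chambers and none of the 5 ventricular markers was called, but with scaling to the 75th percentile Pln, an inhibitor of the calcium pump that stands on the first list, was called lower (log2 fold change -0.68, adjusted p = 0.00643). Pln and Kcnj3 were named for these calls after their values were seen.

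The share of spots that the scanner flagged well above background was 61.4% to 66.4% on the arrays of MI mice and 58.6% to 65.8% on those of sham-operated mice, with the highest of the latter in mouse 1. Correlations between arrays of a group were 0.990 to 0.995 in MI mice and 0.990 to 0.992 in sham-operated mice. No spot of a natriuretic peptide gene was saturated. With 4 arrays a group, the precision of all values is limited by the number of mice. The arrays are of separate mice, so the permutation tests compare animals. The limma p-values and intervals also draw on a variance estimated over all probes, so they do not measure the spread of 1 gene between animals alone. For Nppa, with an SD of 1.19 in sham-operated mice, the limma adjusted p was 0.0156, and 0.285 with a robust prior variance. Its exact permutation p was 0.0857.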

How the data were processed

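Per the file headers, the intensities deposited by the authors are the processed signals that Feature Extraction 11.0.1.1 wrote for 1-colour mouse arrays (200 ng total RNA per sample), with local background subtracted. The log2 values deposited by the authors were normalized with spike-in probes in limma and vsn, without spots not well above background, and the labels name limma with no version. They equal log2 of a scale times the processed signal plus a constant, and those scales and constants were applied here to the intensities, so that spots below background also had a value. An own spike-in fit of vsn, whose constants of 166 to 257 compress moderate signals, was an alternative. Outlier and control spots were left out, spots of a probe averaged, and a probe was kept if it was flagged above background on 4 or more arrays, which kept 34038 of 55681 probes.

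Groups were compared with limma 3.58.1 (R 4.3.3) over all retained probes, with Benjamini-Hochberg adjustment and a call at adjusted p under 0.05. Counts with a fold over 2 besides are given in the closing section. Single values were compared with exact two-sided permutation tests over the 70 splits of the mice. Python 3.11.15, numpy 2.4.6, pandas 2.3.3, scipy 1.17.1 and matplotlib 3.10.9 served for the rest. The fits were tested on simulated data. Symbols and coordinates came from RefSeq (GRCm38.p6), while the array design was annotated on mm9; 26582 probes had a symbol. The members, the gene lists (peptide-processing enzymes, cyclic GMP pathway, phosphodiesterases, transcription regulators, stretch-responsive genes and cell type markers) and the tests were chosen with earlier results of these data known. Named genes are the 8 members, up to 4 called genes of each pathway list by size of change, genes without a retained probe, and the 5 genes nearest to Nppa and Nppb. Alternatives were other scalings and background corrections, other detection filters, significance analysis of microarrays, blocks for replicate number and array row, and each mouse left out. A robust prior variance, and scaling to the 75th percentile without sham mouse 4, were chosen after seeing the data.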

Additional observations from a re-analysis of the deposited data

Results flagged for a closer look

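Of 60 groups of 4 mice tested for a mouse far from the others, 2 were marked by Dixon's ratio of the gap to the whole range, and chance marks about 1 group in 20. Bmp10, an atrial growth factor, had log2 signals of 4.60, 6.29, 4.49 and 4.54 in sham mice 1 to 4, a ratio of 0.941 for mouse 2, and was well above background on 3 arrays of each group. Kcnj3, a potassium channel subunit of atrial cells, had 7.48, 7.39, 7.96 and 7.44, a ratio of 0.850 for mouse 3. No natriuretic peptide gene was marked. Nppa in sham-operated mice, with mouse 4 far below the others, did not reach the limit.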

How the results depend on the processing

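Nppb kept its direction and its call under every alternative run, at log2 fold changes of 1.47 to 1.68 under the 13 other settings and 1.52 to 1.90 with a mouse left out. Nppa kept its direction but lost its call under 10 of the 13 settings and without MI mouse 2. The cause of each change below was not tested. Each member had 1 probe, so the mean over the probes of a gene was the same value and was not run apart.

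With scaling to the 75th percentile, 3010 probes were called lower in place of 446 (401 in place of 138 with a fold over 2), and the share of calls that were higher was 49.6% in place of 82.8%. Nppa was at 1.25 (adjusted p = 0.147), Npr2 at -0.10 and Corin at -0.54 (adjusted p = 0.0318), and 2 processing enzymes, 7 cyclic GMP genes, 2 phosphodiesterases and 3 regulators were called. With that scaling and without sham mouse 4, 1795 probes were lower (393 with the fold), Nppa was at 0.73 (adjusted p = 0.264), Npr2 at -0.13, and the list counts were 2, 5, 1 and 2. Quantile normalization called 3091 lower (450 with the fold), with Nppa at 1.40 (adjusted p = 0.0890), Npr2 at -0.030, Corin at -0.51 (adjusted p = 0.0426), 3 processing enzymes, 7 cyclic GMP genes and 1 phosphodiesterase. After normexp background correction and quantile normalization, 3320 probes were higher (439 with the fold, in place of 1046) and 3675 lower, with Nppa at 1.39 (adjusted p = 0.0720), Npr2 at -0.031, Corin at -0.50 (adjusted p = 0.0240), Furin at 0.39 (adjusted p = 0.0253) and list counts of 2, 7, 3 and 4.

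The own vsn fit called 1150 higher and 121 lower (320 and 13 with the fold), put Nppa at 1.38 (adjusted p = 0.242) and called 0 regulators. The shift by spike-in signals alone called 248 lower, put Nppa at 1.38 (adjusted p = 0.0802) and called 0 regulators. In the deposited values Nppa was at 1.36 (adjusted p = 0.0502). Without a detection filter 937 probes were higher and 53 lower (52 with the fold), Nppa had an adjusted p of 0.240 at 1.37 and 0 regulators were called. Significance analysis of microarrays called 159 lower and 0 regulators, with Nppa at 1.37 (q = 0.120). With the robust prior variance, Nppa was at 1.37 (adjusted p = 0.285).

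Same-numbered mice had correlations of 0.01 to 0.29 between their deviations, beside -0.33 to 0.23 for MI and sham mice of different numbers. Of the 4 MI mice, 2 correlated best with the sham mouse of their number, and the numbers were not taken as pairs. With a replicate block, 3945 probes were higher and 950 lower, Furin was called at 0.47 (adjusted p = 0.0435), Nppa stayed at 1.37 (adjusted p = 0.0461), and the lists had 1 processing enzyme, 2 cyclic GMP genes, 1 phosphodiesterase and 3 regulators.

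With a mouse left out, probes called lower numbered 225 (without MI mouse 2) to 560, and 257 without sham mouse 3; with the fold they numbered 58 to 249. The log2 fold change was 0.83 to 1.79 for Nppa, 0.43 to 0.84 for Npr1 and -0.11 to 0.21 for Npr2, the list counts were 0 to 2 processing enzymes, 1 to 2 cyclic GMP genes and 0 to 3 regulators, and Npr3 minus Npr1 was -1.12 to -0.56. Under the other settings Npr1 ranged from 0.11 (own vsn fit) to 0.76 and Npr3 minus Npr1 from -0.96 to -0.23 (own vsn fit). Signals near background limited Npr1 and left Nppc unmeasured.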

Other observations

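Markers of other cells of the heart were mostly not called. None of 6 endothelial markers was called, with summed signals of 44078 to 57410 in MI mice and 50035 to 60736 in sham-operated mice, but with scaling to the 75th percentile Pecam1, an adhesion protein of endothelium, was called higher in MI mice (log2 fold change 0.53, adjusted p = 0.0389). None of 6 fibroblast markers was called, with 40865 to 103521 against 73280 to 123366, and none of 5 markers of smooth muscle and pericytes, with 13045 to 18968 against 14793 to 22971, but with that scaling Rgs5, a marker of pericytes, was called lower (log2 fold change -0.46, adjusted p = 0.0236). Pecam1 and Rgs5 were named after their values were seen. Of 5 retained monocyte and macrophage markers 1 was called higher, beside 6.3% of all retained probes, with summed signals of 30384 to 49752 against 30476 to 58637. The called marker was Ccr2, a chemokine receptor of circulating monocytes, at 2.22-fold (adjusted p = 0.00112), named after its values were seen. None of 3 red blood cell markers was called, with summed signals of 418750 to 579730 against 216607 to 707074. Ly6g and Cd68 could not be paired with a probe through the RefSeq accessions used here, so their levels were not analysed here.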
